A study of Rattus norvegicus with 12 samples.

Results

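Immediate early genes are the first genes that a cell transcribes after a stimulus, from signalling proteins already present and before any new protein is made. In hippocampal neurons, calcium entry through glutamate receptors and channels activates kinases that act on transcription factors such as CREB and SRF, which switch on the transcription factors *Fos*, *Egr1* and *Npas4* together with effectors of the synapse such as *Arc*. Their transcripts are short-lived, so their level in a tissue is widely used as a mark of recent neuronal activity.

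The genes described here were 35 immediate early genes picked by symbol, in a list made with earlier results of these data known. Of these, 30 were found on the array, on 31 of its 22523 probes (*Nr4a3* had 2), and *Fosl1*, *Fosl2*, *Homer1*, *Rheb* and *Sik1* were not analysed here. Signals came from the whole hippocampus of 12 male rats at postnatal day 14, each read on its own Illumina RatRef-12 array. The rats belonged to generation F15 of lines bred for how much they move about in a new environment, 6 of them bred High Responders (bHR) and 6 bred Low Responders (bLR). Rats of both lines were killed by decapitation and the tissue was frozen, the labels name no stimulus before death, and no unselected strain is among the samples.

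All values below are log2 signals after quantile normalisation over the 12 arrays, and differences are bHR minus bLR. Mean signal per array ran from 453 to 1038 units, and the 3 dimmest arrays (453 to 488 units), all bHR, are replicates 27, 29 and 39, while the other 9 read 750 to 1038 units. Replicate 27 of bHR also correlated least with the other arrays, with a mean r of 0.987 against 0.992 to 0.994 for the remaining 11. Markers were read against the median signal of all probes (6.66), which 11490 of the 22523 probes passed in a line. It was passed by 10 of 10 measured interneuron genes, 7 of 7 astrocyte genes and 5 of 6 CA2 and CA3 genes. So did 4 of 5 CA1 genes and 3 of 6 dentate granule genes, but not *Lct*, *Dsp* and *Stx3* of the dentate list. Lists from outside the hippocampus passed as well: 10 of 10 choroid plexus, 8 of 8 meningeal fibroblast, 7 of 7 thalamus and habenula and 8 of 9 neocortex and striatum genes. Passing this median therefore does not tell the hippocampus from its neighbours. Of the 30 immediate early genes 24 passed that median in a line, *Dusp5* narrowly and in bHR only. *Fosb*, *Egr3*, *Nr4a1*, *Npas4*, *Ier5* and *Atf3* did not. No detection values were used here, so whether these 6 lie above background is not known.

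The start regions of immediate early genes can carry short sequences through which activity acts on them. RefSeq windows of 250 bases before to 50 after the transcription start (assembly GRCr8) were matched for 21 of the 30 genes. *Fos* and *Arc* are among the genes without a window. The windows of *Junb*, *Egr4* and *Nr4a2* are shown because these genes varied between rats with *Fos* and *Arc*, that of *Egr1* because its values spread widely between rats, and that of *Ier2* because it varied the opposite way to *Egr1*. They lie at chr19:40080876-40081175, plus strand (*Junb*), chr4:119607768-119608067, minus strand (*Egr4*), chr3:62104838-62105137, minus strand (*Nr4a2*), chr18:26736828-26737127, plus strand (*Egr1*) and chr19:40399123-40399422, plus strand (*Ier2*), and are written 5′ to 3′ along the strand of the gene. Capitals mark 4 motifs on either strand: the CREB half-site TGACG, which reads CGTCA on the other strand, the full CREB site TGACGTCA, the CArG box of SRF and the TATA box TATAAA.
Junb: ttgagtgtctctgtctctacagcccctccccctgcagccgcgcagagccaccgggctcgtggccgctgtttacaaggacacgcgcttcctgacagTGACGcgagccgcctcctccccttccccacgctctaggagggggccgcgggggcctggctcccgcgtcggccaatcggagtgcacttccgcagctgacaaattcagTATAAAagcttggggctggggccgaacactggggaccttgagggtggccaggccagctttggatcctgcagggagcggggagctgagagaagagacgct
Egr4: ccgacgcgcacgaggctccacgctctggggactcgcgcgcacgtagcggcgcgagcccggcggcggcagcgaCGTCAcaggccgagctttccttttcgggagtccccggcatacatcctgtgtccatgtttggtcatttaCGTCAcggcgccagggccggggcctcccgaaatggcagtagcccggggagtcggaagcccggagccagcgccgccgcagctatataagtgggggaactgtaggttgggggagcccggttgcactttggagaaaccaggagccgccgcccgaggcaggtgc
Nr4a2: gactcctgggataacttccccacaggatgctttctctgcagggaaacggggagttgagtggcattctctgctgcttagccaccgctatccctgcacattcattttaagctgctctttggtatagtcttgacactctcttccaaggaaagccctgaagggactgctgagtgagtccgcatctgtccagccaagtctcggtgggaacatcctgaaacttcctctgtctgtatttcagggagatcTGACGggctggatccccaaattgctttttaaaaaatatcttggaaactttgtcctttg
Egr1: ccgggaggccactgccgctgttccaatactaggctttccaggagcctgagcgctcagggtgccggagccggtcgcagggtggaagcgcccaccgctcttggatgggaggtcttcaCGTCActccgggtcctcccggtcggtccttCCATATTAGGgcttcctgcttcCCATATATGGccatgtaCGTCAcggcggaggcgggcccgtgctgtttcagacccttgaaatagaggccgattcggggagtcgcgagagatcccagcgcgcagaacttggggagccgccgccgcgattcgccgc
Ier2: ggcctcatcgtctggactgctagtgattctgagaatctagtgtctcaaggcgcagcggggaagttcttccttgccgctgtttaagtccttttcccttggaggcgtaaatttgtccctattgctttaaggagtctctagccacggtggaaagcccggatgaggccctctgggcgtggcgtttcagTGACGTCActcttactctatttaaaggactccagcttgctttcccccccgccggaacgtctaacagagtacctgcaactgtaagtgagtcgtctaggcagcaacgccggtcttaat

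*Egr1*, which encodes a zinc finger factor of memory and plasticity, holds CArG boxes 105 and 83 bases before its start and TGACG 135 and 66 bases before it. In *Egr4*, a relative of *Egr1*, TGACG stands at 178 and 110 bases. *Ier2*, which encodes a small nuclear protein, holds the full TGACGTCA 66 bases before its start. *Junb*, a partner of *Fos*, has 1 TGACG at 155 bases and a TATA box at 49, while *Nr4a2*, an orphan nuclear receptor, has 1 TGACG at 8 bases.

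Over the 21 windows TGACG was present in 14 (66.7%), against 21.2% of the 33469 windows of the same length in the table. TGACGTCA, which contains TGACG on both strands, was present in 4 (*Btg2*, *Dusp1*, *Ier2* and *Jund*), or 19.0% against 1.83%. The CArG box was present in another 4 (*Dusp5*, *Egr1*, *Egr2* and *Klf6*), against 1.64% of all windows. TATAAA was found in 6 (28.6% against 14.2%), the EGR motif GCGGGGGCG in *Nptx2* and *Nr4a1* (9.52% against 2.73%), and its variant GCGTGGGCG in *Jund* (0.544% of all windows). TGANTCA, the AP-1 motif, and AAAGGTCA, the NR4A motif, were in none of the 21 windows (7.33% and 1.43% of all windows). All 8 motifs were searched on both strands, and a match is a match of letters only. The GC content of the 21 windows ran from 45% (*Klf4*) to 72.3% (*Nr4a1*), and the shares of all windows were not matched for it.

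The first comparison asked whether the lines differed in the level of these genes. No immediate early gene passed the test between bHR and bLR: 0 of 30 genes, and 0 of 31 probes, had a limma adjusted p under 0.05, where 0.0888% of all 22523 probes did (20 probes). The lowest limma adjusted p was 0.828 among the 30 genes, each read at its brightest probe. At an unadjusted p under 0.05 there was 1 of 31 probes (3.23%), the second probe of *Nr4a3*, against 6.02% of all probes (2.81% lower and 3.2% higher in bHR). The ranges of the lines overlapped for every one of the 30 genes, whereas 0.391% of all probes had ranges that did not. The 95% interval of each of the 30 differences held 0, and together the intervals reached from -0.42 (*Egr1*, 1.34-fold lower in bHR) to +0.44 (*Arc*, 1.35-fold higher), with each interval taken singly and under this scaling. The second *Nr4a3* probe lay outside this pattern, with an interval from -0.58 to -0.05. In whole tissue, fewer cells of a type and less RNA per cell cannot be told apart.

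**Figure D1:**
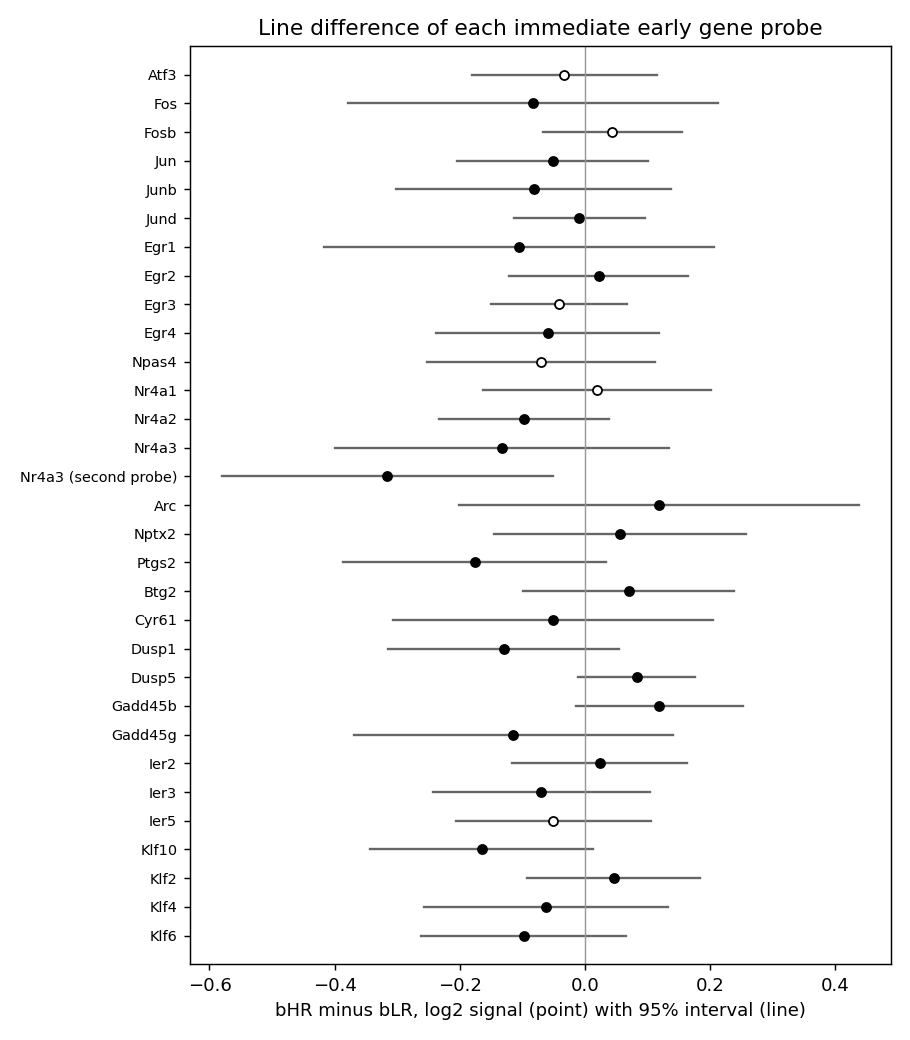
Line difference of each immediate early gene probe. Points give the difference bHR minus bLR in log2 signal with its 95% interval (6 rats per line), open points the 6 genes at or below the median signal of all probes; the interval of every probe crosses 0 except that of the second *Nr4a3* probe.

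The differences were small in both directions. Values were lower in bHR for 20 of 30 genes (66.7%), against 49.1% of all probes and 50.2% of those above the median signal, and the median difference was -0.05, against 0.00 over all probes. The size of this shift moved with the scaling. With arrays centred on their medians 24 genes were lower, against 53.2% of all probes, the median was -0.24 against -0.02, and 16 of 30 genes had an unadjusted limma p under 0.05, against 24.3% of all probes. Without scaling 30 were lower, against 98.6%, the median was -0.43 against -0.22, and 24 of 30 had such a p, against 43.8%. None of the 30 passed after adjustment under either scaling. By role the medians were -0.04 for 6 AP-1 genes, -0.05 for 4 EGR genes, -0.08 for the 3 NR4A receptors with *Npas4*, +0.06 for 3 synaptic effectors, -0.05 for 9 genes of feedback and growth arrest, and -0.08 for 4 KLF genes.

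Among the AP-1 genes, whose proteins pair to bind DNA, *Fos* ranged in bHR from 7.22 through a median of 7.77 to 7.94, and in bLR from 7.51 through 7.69 to 8.23. Both the lowest rat (bHR replicate 33) and the highest (bLR replicate 30) stood at the ends of a shared range. The difference was -0.08 ± 0.14 (SE, n = 6 per line; limma adjusted p = 0.955; exact permutation p = 0.604), and it turned to +0.01 when either of these rats was left out. *Junb*, which can limit the action of other Jun proteins, had a lowest, median and highest value of 9.15, 9.59 and 9.78 in bHR and 9.40, 9.62 and 9.84 in bLR. Replicate 47 of bHR was the low rat and the others overlapped, with a difference of -0.08 ± 0.10 (limma adjusted p = 0.945). *Fosb*, a *Fos* relative whose products accumulate with repeated stimulation, and *Atf3*, a stress-responsive member, lay at or below the median signal. For *Fosb* the values were 6.04, 6.17 and 6.32 in bHR against 6.05, 6.13 and 6.23 in bLR (+0.04 ± 0.05), and for *Atf3* they were 6.45, 6.48 and 6.81 against 6.44, 6.55 and 6.72 (-0.03 ± 0.07). Neither gene separated the lines. *Jun* (-0.05 ± 0.07) and *Jund* (-0.01 ± 0.05), the other Jun proteins, differed less than the rats of a line did among themselves.

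The EGR genes encode zinc finger factors that bind GC-rich sites. *Egr1* ran from 10.35 through a median of 10.96 to 11.37 in bHR and from 10.83 through 11.05 to 11.17 in bLR. The bHR rats split around the bLR rats: 3 of them (33, 41 and 47) lay below every bLR rat, 2 (27 and 39) lay above every bLR rat, and replicate 29 fell among them. The difference was -0.11 ± 0.15 (limma adjusted p = 0.951; exact permutation p = 0.558). *Egr2*, which also acts in myelinating cells, ran from 9.37 through 9.63 to 9.69 in bHR and from 9.44 through 9.54 to 9.71 in bLR (+0.02 ± 0.07). For *Egr4* the values were 8.16, 8.35 and 8.48 in bHR and 8.13, 8.39 and 8.64 in bLR (-0.06 ± 0.08), and for *Egr3*, at or below the median signal, 6.26, 6.38 and 6.53 against 6.36, 6.41 and 6.50 (-0.04 ± 0.05). In all 3 the lines overlapped over most of their range.

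The NR4A genes encode nuclear receptors that act without a known natural ligand, and *Npas4* encodes a factor specific to neuronal calcium signals. *Nr4a3* read 9.76, 10.37 and 10.66 (lowest, median, highest) in bHR and 10.25, 10.42 and 10.53 in bLR. Here bHR replicates 47 and 41 were lowest and 27 highest, around a narrow bLR group, with a difference of -0.13 ± 0.13 (limma adjusted p = 0.929; exact permutation p = 0.403). The second, dimmer *Nr4a3* probe read 7.04, 7.21 and 7.59 in bHR and 7.12, 7.64 and 7.99 in bLR. On it 5 of 6 bHR rats lay below 5 of 6 bLR rats, at -0.32 ± 0.12 (limma unadjusted p = 0.0228, adjusted p = 0.767; exact permutation p = 0.0584). The probes of this gene followed each other weakly over rats within lines (r = 0.32, n = 12). *Nr4a2*, needed for dopamine neurons, read 8.78, 8.97 and 9.01 in bHR and 8.89, 8.97 and 9.19 in bLR (-0.10 ± 0.06; limma adjusted p = 0.879), with the 2 highest rats both bLR. *Nr4a1*, at or below the median signal, read 6.35, 6.62 and 6.82 against 6.37, 6.60 and 6.69 (+0.02 ± 0.09). *Npas4* read 6.17, 6.35 and 6.60 against 6.31, 6.41 and 6.76 (-0.07 ± 0.09), with a single high bLR rat.

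Of the genes that act at synapses, *Arc*, whose protein drives removal of AMPA receptors, ran from 8.67 through a median of 9.42 to 9.53 in bHR and from 8.91 through 9.04 to 9.50 in bLR. In all, 4 bHR rats and 2 bLR rats formed a high group above 9.3, and the remaining rats of both lines lay below 9.2. The difference was +0.12 ± 0.15 (limma adjusted p = 0.945; exact permutation p = 0.489). *Ptgs2*, the inducible cyclooxygenase of prostaglandin synthesis, had the lowest difference of the 30 genes. Its values were 10.22, 10.58 and 10.95 in bHR and 10.64, 10.76 and 10.92 in bLR, a difference of -0.18 ± 0.10 (limma adjusted p = 0.840; exact permutation p = 0.143). The lowest 4 rats were all bHR, and the highest was bHR as well. *Nptx2*, a secreted pentraxin that clusters AMPA receptors, read 8.66, 8.85 and 9.06 in bHR and 8.55, 8.80 and 9.07 in bLR (+0.06 ± 0.09), with the lines overlapping.

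The feedback genes switch signalling off again or hold back growth. *Dusp1*, a phosphatase of MAP kinases, ran from 10.53 through a median of 10.66 to 10.80 in bHR and from 10.52 through 10.78 to 11.10 in bLR. Of the bLR rats 3 lay above every bHR rat, and the difference was -0.13 ± 0.09 (limma adjusted p = 0.881; exact permutation p = 0.219). *Gadd45b*, which takes part in DNA repair and demethylation, had the highest difference: 7.10, 7.21 and 7.32 in bHR against 6.93, 7.07 and 7.26 in bLR, or +0.12 ± 0.06 (limma adjusted p = 0.828; exact permutation p = 0.0844), with the lines overlapping. *Dusp5*, an ERK phosphatase of the nucleus, read 6.57, 6.66 and 6.75 against 6.54, 6.58 and 6.61, with 5 of 6 bHR rats above every bLR rat. It lies near the median signal of all probes (6.658), which only its bHR mean passed (6.660, against 6.577 in bLR). Its difference was +0.08 ± 0.04 (limma unadjusted p = 0.0786, adjusted p = 0.828), and the exact permutation p, not adjusted over genes, was 0.0216. *Btg2*, an inhibitor of proliferation, read 8.905, 9.004 and 9.154 against 8.708, 8.952 and 9.184 (+0.07 ± 0.08). *Ier2* read 7.91, 8.11 and 8.34 against 8.05, 8.09 and 8.19 (+0.02 ± 0.07), its bHR rats lying on both sides of a narrow bLR group. *Ier3*, *Ier5*, *Gadd45g* and *Cyr61*, a secreted matrix protein, gave -0.07, -0.05, -0.11 and -0.05, and their lines overlapped too.

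Among the KLF zinc finger factors, *Klf10*, a gene induced by TGF-beta, read 8.50, 8.63 and 8.71 in bHR and 8.49, 8.82 and 9.02 in bLR. Of the bLR rats 4 lay above every bHR rat and the lowest rat was also bLR, with a difference of -0.16 ± 0.08 (limma adjusted p = 0.828; exact permutation p = 0.106). *Klf2*, *Klf4* and *Klf6* gave +0.05 ± 0.06, -0.06 ± 0.09 and -0.10 ± 0.08.

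**Figure D2:**
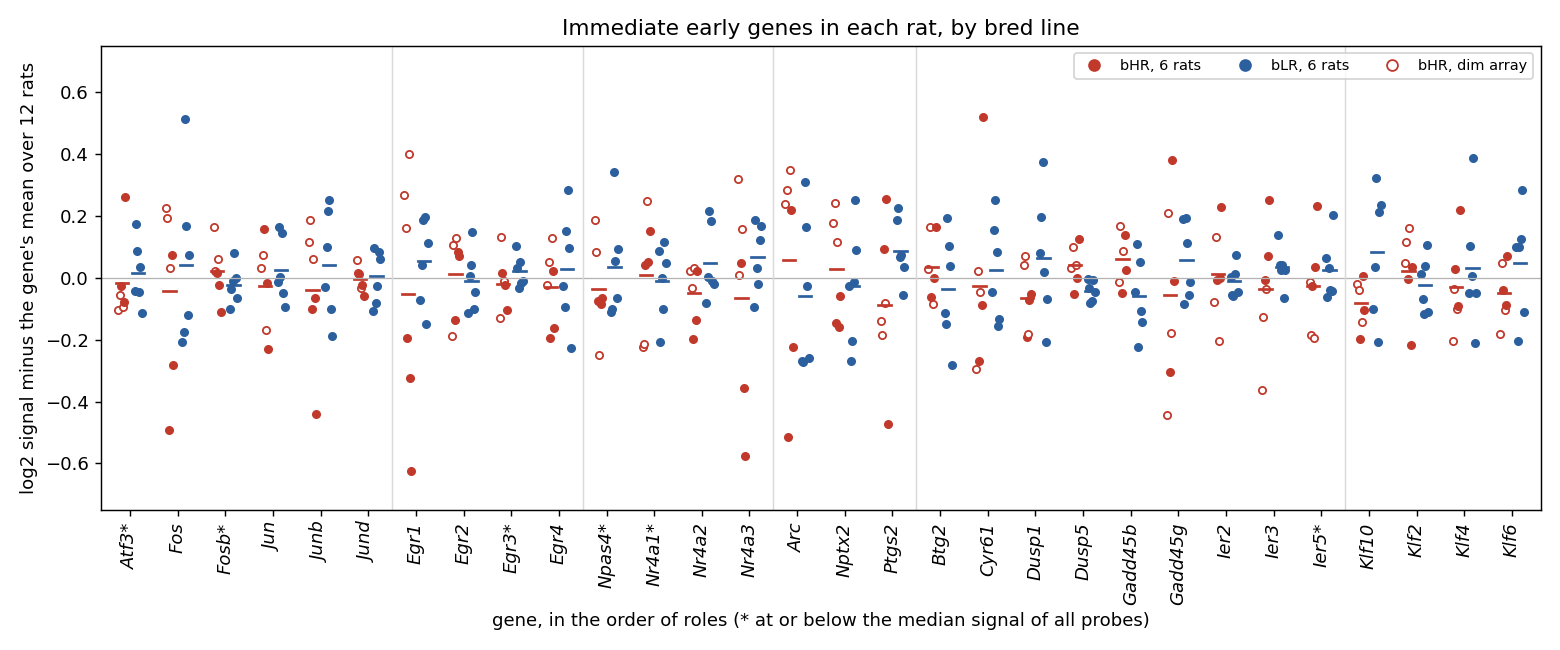
Immediate early genes in each rat. Each point is a rat's log2 signal minus the mean of that gene over the 12 rats, red for bHR and blue for bLR with short lines at the line means (6 rats each), and open red points are the 3 dim bHR arrays; *Fos*, *Egr1*, *Nr4a3* and *Arc* spread most widely, and the line means lie close together.

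Rats of a line differed far more in some of these genes than in others. The within-line SD of *Arc* (0.303), *Egr1* (0.296) and *Fos* (0.279) stood at the percentiles 93.7, 93.0 and 91.7 among the 11490 probes above the median signal, where the 12 rats spanned 1.82-fold, 2.04-fold and 2.01-fold. Next were *Nr4a3* (0.250), *Cyr61* (0.239), *Gadd45g* (0.238) and *Junb* (0.202). The spread of *Egr1*, *Nr4a3* and *Gadd45g* lay mostly in bHR, with SDs of 0.394, 0.336 and 0.313, against 0.141, 0.111 and 0.125 in bLR. *Fos* (0.285 in bHR and 0.274 in bLR) and *Arc* (0.347 and 0.252) spread in both lines. At the other end *Dusp5* had an SD of 0.0517 and *Jund* of 0.0692. The median over the 30 genes was 0.154, near the 0.145 of all probes above the median signal, so wide variation belonged to single members and not to the list. The bHR rats had the larger SD in 19 of 30 genes (63.3%), and in 64.7% of all probes.

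The second question was whether the genes rose and fell together across rats. Each value was taken as the deviation from its own line's mean, so that no line difference entered, and correlations are over the 12 rats. As a list, the genes lay near the background of all probes: the median r over the 435 pairs was 0.05, 11.5% of pairs had r above 0.5 and 6.44% below -0.5. For all pairs of probes above the median signal the median was 0.00, with 10.97% and 10.57% past those limits, and for the 276 pairs of the 24 genes above that signal the shares were 12.7% and 5.43%. The arrays, 1 per rat, were scaled together, and the choice of scaling moved the median r to 0.16 with median centring and to 0.70 without scaling.

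*Fos* and *Arc* were the closest of the 435 pairs. The fixed pairs were chosen with earlier results of these data known, which their p-values do not take into account. Within lines their r was 0.893 (rho 0.881; permutation p = 0.00098, adjusted p over 8 fixed pairs = 0.00784, two-sided with 100000 resamples; rho adjusted p = 0.0107). The relation held in bHR (r = 0.945) and in bLR (0.839), without the rats farthest out in *Fos*, bHR 33 and bLR 30 (0.811), and on the 9 brighter arrays (0.889; permutation adjusted p = 0.0250). In single rats, bHR 33 was lowest in both genes (7.22 for *Fos*, 8.67 for *Arc*) and bLR 30 was highest in *Fos* (8.23) and second in *Arc* (9.50). The adjusted permutation p stayed below 0.05 in all 12 fits that left out a rat, with r from 0.841 to 0.927, the highest p being 0.0484 without bHR 47.

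The other 7 fixed pairs did not pass after adjustment on r. *Fos* with *Junb* gave r = 0.626 (permutation p = 0.0414, adjusted p = 0.144), with a rho of 0.741 that did pass (permutation adjusted p = 0.0418). *Fos* with *Egr1* gave 0.592 (adjusted permutation p = 0.144), and *Egr1* with *Arc* 0.589 (0.147). On the 9 brighter arrays these were 0.431, 0.395 and 0.183. *Fos* with *Dusp1* gave 0.554 (0.144), and 0.212 without the 2 rats farthest out. *Fos* with *Btg2* gave 0.439 (0.231), with *Nr4a1* -0.327 (0.375) and with *Ier2* -0.265 (0.455), so r with *Fos* took both signs within the set.

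**Figure D3:**
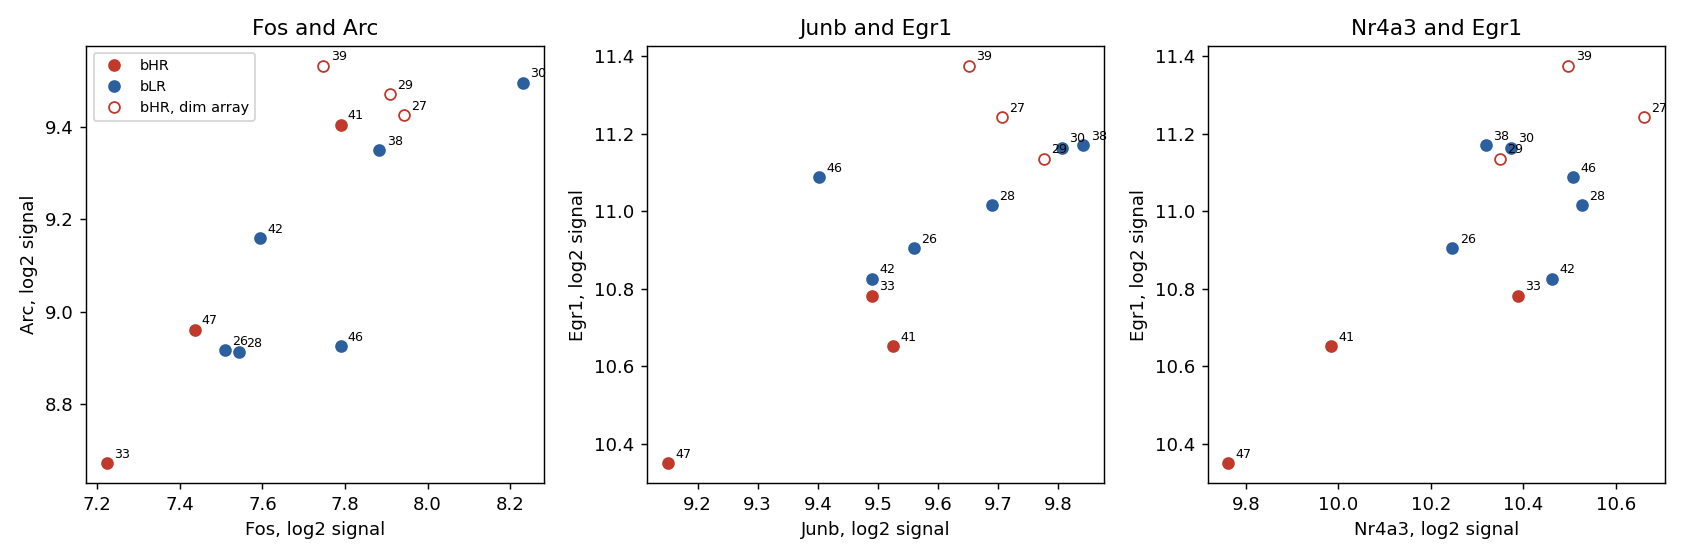
Pairs of immediate early genes across rats. Each point is a rat's log2 signal for both genes, labelled with its number, red for bHR (open on the 3 dim arrays) and blue for bLR; *Fos* and *Arc* rise together in both lines (r = 0.945 in bHR and 0.839 in bLR), and *Nr4a3* with *Egr1* gave 0.902 in bHR and -0.05 in bLR, a difference that was not tested.

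A summary per rat, the mean over *Fos*, *Junb*, *Egr1*, *Egr2*, *Arc*, *Dusp1*, *Ier2* and *Btg2* of values centred per gene, ran from -0.213 (bHR 33) to +0.162 (bHR 29) in bHR and from -0.0903 (bLR 26) to +0.222 (bLR 30) in bLR. The means were -0.010 ± 0.143 (SD, n = 6) and +0.010 ± 0.134, so the spread within a line was far wider than the gap between lines. Against the other genes of this summary, *Fos* had r = 0.861, *Arc* 0.849, *Egr4* 0.760, *Nr4a2* 0.759 and *Junb* 0.743, and no other member exceeded 0.58. These 5 genes had r from 0.428 to 0.893 with each other over 10 pairs (0.285 to 0.889 on the 9 brighter arrays). They were picked out by these values, so the figures are a description. Replicates 27, 29 and 39 of bHR, the 3 dim arrays, and 30 and 38 of bLR lay above their line's mean in all 5 genes. Below it in all 5 were bHR 33 and bLR 26. *Egr1* (0.481), *Dusp1* (0.495), *Btg2* (0.452) and *Egr2* (0.390) followed less closely, and *Ier2* (-0.337), *Nr4a1* (-0.418), *Ier3* (-0.441) and *Ier5* (-0.501) ran the other way.

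**Figure D4:**
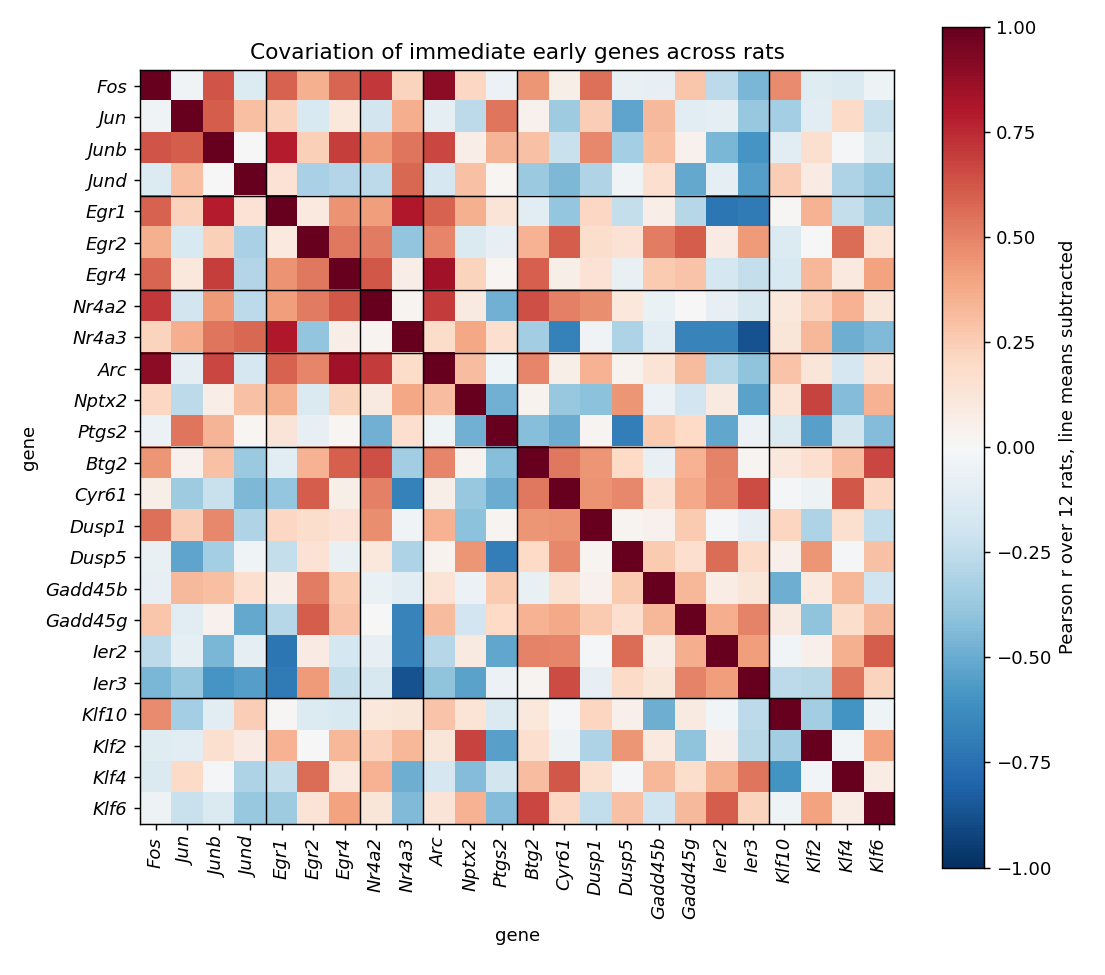
Covariation of the 24 immediate early genes above the median signal. Each cell is the Pearson r of a pair over the 12 rats after subtracting line means (colour, from -1 to 1), with black lines between roles; the red cells of *Fos* with *Arc* (0.893), *Egr4* with *Arc* (0.838) and *Egr1* with *Nr4a3* (0.802) stand beside blue cells such as *Nr4a3* with *Ier3* (-0.871).

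The closest members to *Egr1* were *Nr4a3* (r = 0.802) and *Junb* (0.781). For *Nr4a3* r was 0.902 in bHR, which holds the 3 dim arrays, -0.05 in bLR and 0.560 on the 9 brighter arrays. For *Junb* it was 0.883, 0.617 and 0.741. Both pairs were chosen after their values were seen and have no test, and the difference between lines was not tested.

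Some of these genes separated by array brightness within bHR, in a share near that of all probes. All 3 dim bHR arrays lay above all 3 brighter bHR arrays for 6 of 30 genes (*Egr1*, *Arc*, *Junb*, *Nptx2*, *Klf2* and *Fosb*) and below them for *Ier3*, where 19.9% of all probes separated one way or the other. *Egr1* read 11.14 to 11.37 on the dim arrays and 10.35 to 10.78 on the brighter ones, *Arc* 9.43 to 9.53 against 8.67 to 9.41, and *Junb* 9.65 to 9.78 against 9.15 to 9.53. The 8-gene summary averaged +0.102 on the dim arrays and -0.123 on the brighter bHR arrays. No bLR array was dim, so brightness and rat cannot be told apart within bHR.

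On the 9 brighter arrays alone, *Egr1* was lower in each of the 3 bHR rats than in each of the 6 bLR rats, by -0.44 ± 0.10 (limma unadjusted p = 0.0011, adjusted p = 0.312). It was the only 1 of 30 genes whose lines did not overlap there, against 2.66% of all probes. *Nr4a3* (-0.37 ± 0.12; limma adjusted p = 0.666) and *Junb* (-0.25 ± 0.11; 0.868) were the other genes with an unadjusted p under 0.05, 3 of 30 in all against 5.72% of all probes. The second *Nr4a3* probe gave -0.47 ± 0.15 there (limma unadjusted p = 0.0077, adjusted p = 0.650). No immediate early gene passed the adjusted test in this comparison, where 0.0755% of all probes did (17 probes). *Arc* turned from +0.12 to -0.12 and *Nptx2* from +0.06 to -0.10. Whether array brightness has a part in the *Egr1* values was not tested.

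Outside the set, the probes that followed the 8-gene summary most closely over the 12 rats were *Tnks1bp1* (r = 0.901), *Tmem229b* (0.886), *Cyfip2* (0.876), *Nr2f1* (0.873), *Kcnc2* (0.869), *Dtx4* (0.868), *Bcr* (0.866), *Clcn6* (0.866), *Ski* (0.863) and *Fbxl16* (0.860). *Cyfip2* encodes a regulator of actin, *Kcnc2* a potassium channel of fast-spiking neurons and *Nr2f1* a nuclear receptor. Lowest were *Gcnt1* (-0.885), *Apeh* (-0.879) and LOC685669 (-0.868). They are the ends of 11460 probes, of which 24 had r above 0.8 and 12 below -0.8, and none of these 13 passed the test between lines. Summed marker levels of other cells moved with the summary to a lesser degree. The astrocyte list had r = 0.586 (7 of 7 measured genes above the median signal; list means 11.03 to 11.63 in bHR and 11.14 to 11.34 in bLR), the meningeal fibroblast list -0.527 (8 of 8; 9.45 to 10.04 and 9.60 to 9.95) and the endothelial list 0.490 (6 of 8; 8.04 to 8.19 and 8.06 to 8.21). For the hippocampal neuron lists r was 0.365 (dentate granule), 0.379 (CA1) and -0.389 (CA2 and CA3), and for interneurons 0.0611. It was 0.444 for neocortex and striatum, 0.434 for oligodendrocytes, -0.386 for choroid plexus, -0.377 for thalamus and habenula, -0.196 for microglia and -0.0570 for blood. Their part in the values was not tested.

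Genes around the set in the same pathway were read in the same fit, from lists chosen with earlier results of these data known. Upstream signalling, from glutamate receptors through kinases to CREB and SRF, had 40 of 47 genes measured and none called, against 0.0888% of all probes. There 19 values were higher and 21 lower in bHR (median -0.01), where 49.1% of all probes were lower. An unadjusted p under 0.05 was found for 3 (7.50%), against 6.02% of all probes. Among them were *Camkk2*, a calcium-dependent kinase (-0.40 ± 0.16; limma adjusted p = 0.784), and *Rps6ka1*, a kinase downstream of ERK (+0.12).

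Other activity-regulated genes, 39 of 53 measured, had 29 values lower (74.4%, against 49.1% of all probes) and 10 higher in bHR, with a median of -0.05. Of the 39, 7 (17.9%) had an unadjusted p under 0.05, against 6.02% of all probes. *Cebpb*, a leucine zipper transcription factor, passed and fell: it read 9.82 to 10.06 in bHR (mean 9.95 ± 0.10, SD, n = 6) and 10.18 to 10.39 in bLR (10.29 ± 0.07), so that each bHR rat lay below each bLR rat. That made 1 of 39 genes called, against 0.0888% of all probes, and 0.391% of all probes had ranges that did not overlap. The difference was -0.34 ± 0.06 (SE; limma adjusted p = 0.0318), a call already known when the list was made. It ended with median centring (-0.65; limma adjusted p = 0.0865), without scaling (-0.85; 0.0920), with a variance trend and robust estimation (0.101), on the 9 brighter arrays (-0.39; 0.127) and with brightness as a block (-0.39; 0.0834). It was also lost in 9 of the 12 fits that left out a rat, and remained without bHR 27, bHR 41 or bLR 46. Next were *Per2*, a circadian repressor (-0.17 ± 0.06; limma adjusted p = 0.655), and *Nfil3*, a bZIP repressor (-0.29 ± 0.11; 0.725), neither of which passed.

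Glucocorticoid targets, a readout of stress hormone, had 12 of 14 genes measured and none called, against 0.0888% of all probes. In bHR 9 values were lower (75%, against 49.1% of all probes) and 3 higher (median -0.06). Of the 12, 3 (25.0%) had an unadjusted p under 0.05, against 6.02% of all probes. Lowest in p were *Klf9* (-0.19 ± 0.06; limma adjusted p = 0.677), *Ddit4* (-0.39 ± 0.16; 0.778) and *Mt1a* (-0.37 ± 0.17; 0.818). Hypoxia and vascular stress genes had 12 of 14 measured and none called, with 9 higher and 3 lower in bHR (median +0.05). The share lower was 25.0%, against 49.1% of all probes, and 2 (16.7%) had an unadjusted p under 0.05, against 6.02%. There *Bag3*, a co-chaperone, gave -0.24 ± 0.08 (limma adjusted p = 0.620), *Slc2a1*, the glucose transporter of the blood-brain barrier, +0.13, and *Vegfa*, the vascular growth factor, -0.17. The direction of the hypoxia list turned with the scaling, since 9 of 12 genes were lower in bHR with arrays centred on their medians (median -0.14). The other lists kept theirs and moved in size, to 32 of 40 signalling genes lower (-0.24), 35 of 39 activity-regulated genes (-0.29) and 11 of 12 glucocorticoid targets (-0.32). Under that scaling 53.2% of all probes were lower (median -0.02). Most genes of these lists lie above the median signal, and the share among such probes is not given for that scaling.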

How the data were processed

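Total RNA of the whole hippocampus was hybridised to 12 arrays, 1 per rat, 6 rats per line. The deposited intensity table holds the linear average bead signal of 22523 probes, not normalised between arrays. The deposited log2 table holds the authors' values after log2 and quantile normalisation. Per the labels' design text and the submitters' processing notes, signals were extracted with limma 3.28.21 and normalised with preprocessCore 1.34.0, and a potential outlier was kept. For background correction nothing is given in the sources used here. Chips and batches are not known here, and the number of arrays limits the precision.

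From the deposited intensities, log2 values were taken and the 12 arrays quantile normalised in R 4.3.3 (limma 3.58.1), without background correction. Set against the authors' log2 table, values differed by a median of 0.00037 and never by more than 0.254. The limma functions lmFit and eBayes compared the lines at each probe, and two-sided p-values were adjusted by the Benjamini-Hochberg method across the 22523 probes and called at 0.05. Exact permutation tests used all 924 assignments of the 12 rats to lines (smallest p 0.0022). Correlations used deviations from line means, and the 8 fixed pairs used 100000 permutations within lines, with scipy 1.17.1. The fit was tested on simulated data.

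Gene symbols came from the deposited table, with any ending for predicted genes removed. The genes, lists, pairs and naming rule were chosen with earlier results of these data known. The rule named 21 genes with values in every rat: those with an unadjusted p under 0.05, the 3 largest and 3 smallest differences, and 18 well-known members of which 17 were measured. It also named the 10 probes most like the 8-gene summary and the 3 least like it, and up to 3 genes of lowest p per pathway list, of which 1 is not reported here. Alternatives were median centring, no scaling, normexp with an offset of 50, the authors' values, robust estimation with a variance trend, a filter on dim probes, weights for arrays, the 9 brighter arrays, brightness as a block, averaging the probes of each gene, and leaving out each rat.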

Additional observations from a re-analysis of the deposited data

Results flagged for a closer look

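*Atf3*, a stress-responsive transcription factor at or below the median signal of all probes, read 6.812 in bHR replicate 47, while the nearest bHR rat read 6.52 and the lowest 6.45. The gap was 0.791 of the range of the 6 rats, above the critical share of 0.625 for 6 values. It was 1 of 64 groups of values examined, and chance singles out about 1 in 20 groups.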

How the results depend on the processing

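No immediate early gene was called between the lines in any of the 22 alternatives. The median difference over the genes was -0.236 with median centring and -0.434 without scaling, and lay between -0.0645 and -0.0249 when a rat was left out. The median correlation between members was 0.161 with median centring and 0.701 without scaling, and between 0.0364 and 0.0712 when a rat was left out. The count of called pathway genes was 0 with median centring, without scaling, with trend and robust estimation, on the 9 brighter arrays and with the brightness block, and 0 to 1 when a rat was left out. The 1 called without bLR 30 was *Mafk* (-0.39, limma adjusted p = 0.0371), not *Cebpb*. *Fos* with *Arc* kept its call in all 19 alternatives run. Among these, the dim filter and the averaging of probes leave the values of both genes unchanged. Without scaling, r between members was high in general, so the call there says little about this pair. Of 457 line differences of 21 named genes, 425 kept their sign and 32 turned, and none passed the test. Some of these could not turn. The dim filter and the trend and robust estimation leave every difference as it was, and averaging probes changes only *Nr4a3*.

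With median centring *Egr2* gave -0.266, *Egr3* 0.00432, *Arc* -0.157, *Ier2* -0.180, *Btg2* -0.190 and *Nptx2* -0.207. Without scaling *Fosb* gave -0.0714, *Egr2* -0.465, *Arc* -0.356, *Nr4a1* -0.159, *Dusp5* -0.112, *Ier2* -0.379, *Btg2* -0.389, *Nptx2* -0.406 and *Gadd45b* -0.173, and the correlations of *Fos* with *Nr4a1* and *Ier2* were 0.169 and 0.253. On the 9 brighter arrays and with the brightness block, *Fosb* gave -0.0184 and -0.0172, *Arc* -0.117 and -0.114, *Atf3* 0.0392 and 0.036, and *Nptx2* -0.0967 and -0.0947. When a rat was left out, *Fos* ranged from -0.138 to 0.0111 (above 0 without bHR 33 or bLR 30), *Egr1* from -0.197 to 0.00815 (above 0 without bHR 47) and *Egr2* from -0.00184 (without bHR 39) to 0.0623. *Nr4a1* ranged from -0.0299 to 0.0666 (below 0 without bHR 39, bHR 47 or bLR 28) and *Ier2* from -0.0199 to 0.0676 (below 0 without bHR 29 or bHR 47). The cause was not tested.

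No paired analysis was possible because the rats of the lines share no replicate numbers. The number of arrays and, for 6 genes, signal at or below the median of all probes limit what these data can show.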

Other observations

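Of the 435 pairs of members 6.44% had r below -0.5 across rats, against 10.57% of all pairs of probes above the median signal. Of these pairs, *Nr4a3* with *Ier3*, a stress-inducible survival gene, gave r = -0.871 over the 12 rats after subtracting line means, with -0.896 in bHR, -0.628 in bLR and -0.825 on the 9 brighter arrays. *Egr1* with *Ier2* gave -0.719, with -0.728 in bHR, -0.650 in bLR and -0.827 on the 9 brighter arrays. *Junb* with *Ier5* gave -0.782 and *Jun* with *Nr4a1* -0.728, and in both pairs the second gene lies at or below the median signal. These pairs were chosen after their values were seen, out of 435, and have no test.

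Among positive pairs outside *Fos* and *Arc*, *Btg2* with *Klf6* gave r = 0.671, with 0.688 in bHR and 0.666 in bLR, and *Ier2* with *Klf6* gave 0.605, with 0.841 in bHR and 0.800 in bLR. *Klf2* with *Nptx2* gave 0.675 (0.742 in bHR and 0.632 in bLR). They too were picked by their values, and 10.97% of all pairs of probes above the median signal have r above 0.5.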
